A study of Saccharomyces cerevisiae with 68 samples.

Results

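The 10 genes described here serve iron uptake in budding yeast: FET3, FTR1, SIT1, ARN1, ARN2, ENB1, FIT1, FIT2, FIT3 and CCC2. They were chosen by name, as the probe sets annotated to these symbols, out of 5449 S. cerevisiae genes on the arrays, and each has 1 probe set. Fet3 and Ftr1 form the high-affinity uptake system of the plasma membrane, in which the copper-dependent oxidase Fet3 oxidises ferrous iron and the permease Ftr1 carries it in. Ccc2 pumps copper into the secretory pathway, where Fet3 receives it. Sit1, Arn1, Arn2 and Enb1 import iron bound to siderophores, small chelators that yeast takes from other microbes, and the cell wall mannoproteins Fit1, Fit2 and Fit3 help to retain such iron at the cell surface. All are targets of the iron-responsive activator Aft1, with its paralogue Aft2, which is active when cells sense little iron.

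The arrays carry newly made (nascent) RNA, purified after 6 min of labelling with 5 mM 4-thiouracil, and total RNA of the same cultures, grown in YPD at 30 °C. The deletion strains lack subunits of SAGA, a coactivator complex of RNA polymerase II: the strains spt20[delta] and spt7[delta] lack subunits that hold the complex together, spt3[delta] and spt8[delta] lack subunits that contact the TATA-binding protein, gcn5[delta] lacks the histone acetyltransferase and ubp8[delta] the ubiquitin protease. The strains ubp8[delta]gcn5[delta] and spt3[delta]gcn5[delta] lack both named subunits, and every strain, the wild type (WT) included, derives from FY406. They are called spt20, ubp8_gcn5 and so on below. Nascent RNA was analysed in 4 arrays each of spt20, ubp8, gcn5 and ubp8_gcn5, in 2 each of spt3, spt8 and spt3_gcn5, and in 6 of WT. Total RNA was analysed in 4 arrays each of spt7, ubp8, gcn5 and ubp8_gcn5, in 2 each of spt20, spt3, spt8 and spt3_gcn5, and in 6 of WT. Per the labels each deletion strain has 2 biological replicates, yet up to 4 arrays of a strain were deposited, so p-values here measure the spread between arrays, which may be technical.

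A level is the log2 signal of a gene minus the median log2 signal of the tested S. cerevisiae genes on the same array, and a change is the difference of mean levels between a strain and WT, given ± the standard error (SE) of the limma fit. A gene rose or fell where its Benjamini-Hochberg adjusted p over 4086 tested genes was under 0.05. Levels are not compared between genes, since each probe set has its own brightness. In all 19 checks of a deleted gene in its strain it was lower than in WT, by log2 changes of -4.03 to -9.44. S. pombe cells, mixed in at 1 per 3 S. cerevisiae cells, serve as a spike-in, and by their profiles the arrays form 2 sets. The second holds the spt3_gcn5 arrays with WT 7 and WT 8, which lie at a mean Spearman rho of 0.482 from the others in nascent RNA and 0.745 in total RNA. WT 7 and 8 were therefore the control for spt3_gcn5 and WT 3 to 6 for all other strains. The arrays labelled SPT20 total 1 and 3 were left out because SPT20 itself was at -0.70 and -0.55 there and at -6.84 and -7.67 in replicates 2 and 4, against -0.78 to -0.69 in WT 3 to 6, and the spt7 nascent arrays because their S. cerevisiae values were unrelated to the strain's total RNA (rho 0.0162 to 0.0188). The likeness of nascent and total RNA within a culture also varied: the S. pombe rho between the fractions was 0.961 to 0.989 in WT 3 to 6, 0.872 to 0.893 in spt3 and spt8, and 0.815 to 0.843 in WT 7 and 8 and spt3_gcn5. Its part in the nascent results was not tested. Total RNA, which needs no purification of labelled RNA, was fitted in the same way for each strain, while spt3 against spt8, spt3 against gcn5 and spt3_gcn5 minus spt3 were fitted in nascent RNA only.

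By the RefSeq gene order, 7 of the 10 genes lie among the outermost 14 protein-coding genes at an end of their chromosome. These are SIT1 (YEL065W, chromosome V), ARN1 (YHL040C) and ARN2 (YHL047C) on chromosome VIII, ENB1 (YOL158C), FIT2 (YOR382W) and FIT3 (YOR383C) on chromosome XV, and FIT1 (YDR534C, chromosome IV). FIT3 and FIT2 are direct neighbours at the 13th and the 14th place from the chromosome end, and the ferric reductase gene FRE5 follows FIT3. The cut of 14 is the place of FIT2, the furthest of the 7 from an end. The share of all genes within it was not counted. FET3 (YMR058W, chromosome XIII), FTR1 (YER145C, chromosome V) and CCC2 (YDR270W, chromosome IV) lie further inside. The signals of ARN2 and FIT1 fell among the lowest 25% of genes in both fractions, so 8 of the 10 were tested, and the values of these 2 come from a fit without the signal filter.

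**Figure D1:**
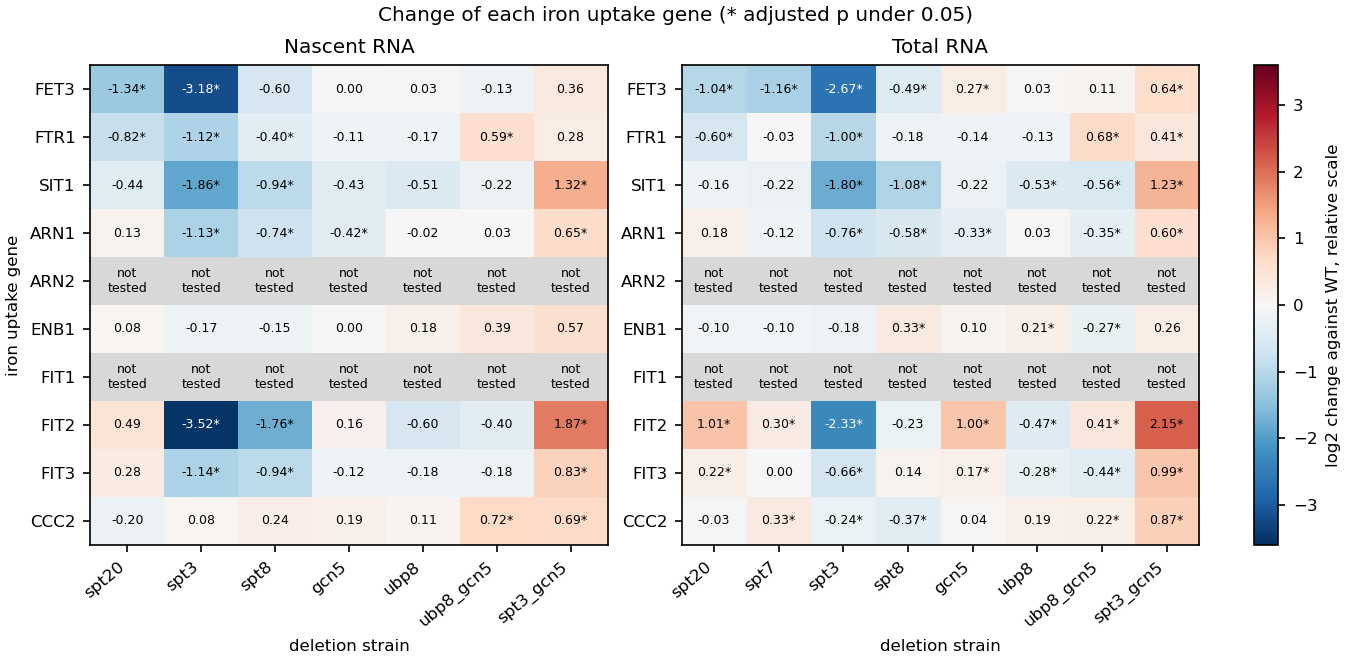
Log2 change against WT, relative to the median of all tested genes, of the 10 iron uptake genes (rows) in each deletion strain (columns), in nascent RNA (left) and total RNA (right). Stars mark an adjusted p under 0.05. The deepest blue cells are FET3 and FIT2 in spt3, and the darkest red cells are FIT2 in spt3_gcn5.

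Most of the genes fell in spt3, in both fractions. In nascent RNA 6 of the 8 tested genes fell in spt3 and none rose, where 36.5% of all tested genes changed and 19.4% fell. In total RNA 7 of 8 fell and none rose, where 47.1% of all genes changed, 19.6% down and 27.5% up. The median change of the 8 was -1.13 in nascent and -0.88 in total RNA, where the median over all tested genes was -0.02 and 0.04.

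FET3 was at -2.01 and -2.28 in the spt3 nascent arrays, against 1.33, 1.04, 0.96 and 0.80 in WT 3 to 6. No other strain had FET3 this low, and the spt3 and WT arrays lie far apart. The change was -3.18 ± 0.26 (adjusted p = 2.66e-09), 9.07-fold lower in spt3. In total RNA FET3 was at -1.4 and -1.593 in spt3, against 1.48, 1.26, 0.91 and 1.02 in WT, a change of -2.67 ± 0.12 (adjusted p = 2.73e-15). FTR1, the permease partner, fell by less. It was at -0.24 and -0.38 in spt3 nascent RNA, against 1.12, 0.76, 0.76 and 0.59 in WT, and changed by -1.12 ± 0.14 (adjusted p = 1.33e-06), with -0.999 ± 0.103 in total RNA. CCC2, the copper pump that supplies Fet3, did not pass in nascent RNA (0.08 ± 0.12) and fell by 0.24 ± 0.10 in total RNA (adjusted p = 0.0414), a call that was lost without spt3 replicate 2 (-0.16, adjusted p = 0.335) and without WT replicate 3 or 6, and that lay at the threshold without spt3 replicate 1 (adjusted p = 0.05).

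**Figure D2:**
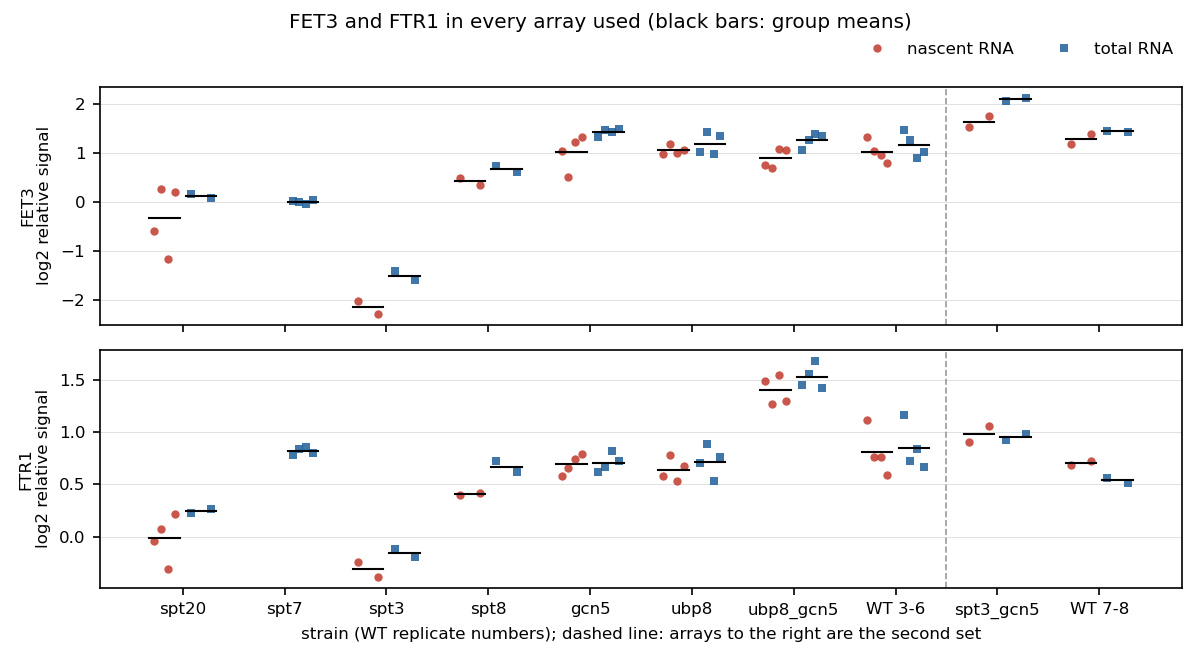
Level of FET3 (top) and FTR1 (bottom) in every array used, as log2 signal relative to the array median, by strain, with nascent RNA as red circles, total RNA as blue squares and group means as black bars. The spt3 arrays are the lowest for FET3 in both fractions, and the FTR1 points of ubp8_gcn5 all lie above those of WT 3 to 6.

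Among the siderophore genes SIT1, the transporter of ferrioxamine-type siderophores, was at -2.24 and -2.49 in spt3 nascent RNA, against 0.04, -0.54, -0.57 and -0.95 in WT. Its change was -1.86 ± 0.23 (adjusted p = 1.53e-06) in nascent and -1.80 ± 0.16 in total RNA. ARN1, a transporter of ferrichrome-type siderophores, fell by 1.13 ± 0.17 and 0.76 ± 0.10. ENB1, the transporter of enterobactin, did not pass in either fraction, with -0.17 ± 0.22 and -0.18 ± 0.10. The mannoprotein gene FIT2 was at -2.54 and -2.98 in spt3 nascent RNA, against 1.31, 0.65, 0.91 and 0.15 in WT, and no spt3 array reached the WT range. FIT2 changed by -3.52 ± 0.38 (adjusted p = 2.61e-07) in nascent RNA and by -2.33 ± 0.16 (adjusted p = 7.51e-12) in total RNA. Its neighbour FIT3 changed by -1.14 ± 0.24 and -0.66 ± 0.08. The nascent change of FIT2 exceeded its total change by -1.19 ± 0.43 (adjusted p = 0.0325), where 29.1% of all genes differed in this contrast, and the other 7 genes did not pass it (-0.52 to 0.32). That difference passed in 5 of 12 fits without 1 array. It was lost without either spt3 total array, spt3 nascent replicate 2, WT nascent replicate 3 or 5, or WT total replicate 4 or 6 (adjusted p = 0.0529 to 0.206), and with all 6 WT arrays as the control (-0.83, adjusted p = 0.722).

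**Figure D3:**
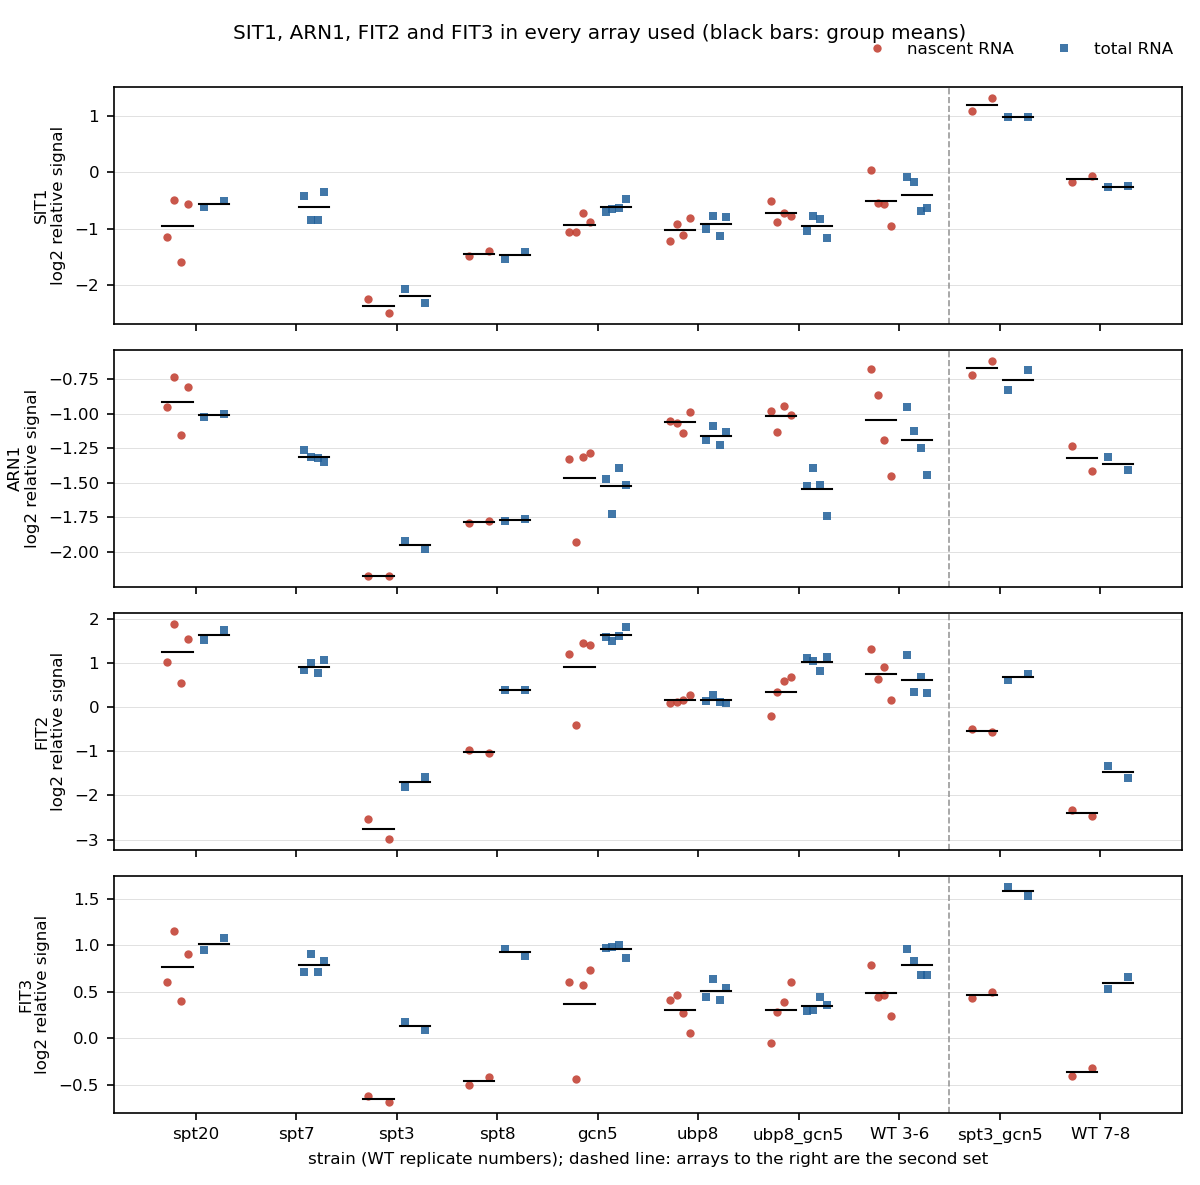
Level of SIT1, ARN1, FIT2 and FIT3 (rows) in every array used, as log2 signal relative to the array median, by strain, with nascent RNA as red circles, total RNA as blue squares and group means as black bars. All 4 genes are low in spt3, FIT2 is also low in WT 7 and 8, and gcn5 nascent replicate 2 stands below its group for ARN1, FIT2 and FIT3.

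Measured against the S. pombe spike-in instead of the S. cerevisiae median, every change moves by the same amount within a comparison. That amount was -0.78 in spt3 nascent and -0.33 in spt3 total RNA, so the spike-scaled falls were larger, with -3.96 for FET3 and -4.30 for FIT2 in nascent RNA. All 8 tested genes then fell in both fractions, where 70.9% of all genes were called in nascent and 32.6% in total RNA on that scale.

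Spt8 acts with Spt3. The estimated changes of FET3, FTR1, SIT1, ARN1, FIT2 and FIT3 against WT were smaller in size in spt8 than in spt3, in both fractions. A direct comparison, in nascent RNA only, is given below, and not all of these genes passed it. CCC2 fell by 0.37 ± 0.10 in spt8 total RNA, where its change in spt3 was -0.24 ± 0.10. In spt8 nascent RNA 5 of 8 genes fell and none rose, where 42.3% of all genes changed, 26.2% down and 16.1% up. In total RNA 4 fell and ENB1 rose, where 40.3% of all genes changed, 14.7% fell and 25.5% rose. FET3 was at 0.50 and 0.36 in spt8 nascent RNA, below all 4 WT 3 to 6 arrays, but the change of -0.60 ± 0.26 did not pass (adjusted p = 0.067). In total RNA FET3 was at 0.74 and 0.63 in spt8, and its change of -0.49 ± 0.12 passed (adjusted p = 0.00274). SIT1 was at -1.482 and -1.404 in spt8 nascent RNA and at -1.54 and -1.41 in total RNA, and fell by 0.94 ± 0.23 and 1.08 ± 0.16. ARN1 fell by 0.74 ± 0.17 and 0.58 ± 0.10. FIT2 was at -0.97 and -1.04 in spt8 nascent RNA and at 0.38 and 0.40 in total RNA, where WT 3 to 6 had 1.18, 0.33, 0.68 and 0.32. It fell by 1.76 ± 0.38 in nascent RNA, and its total change of -0.23 ± 0.16 did not pass. FIT3 fell by 0.94 ± 0.24 in nascent RNA, and its total change of 0.14 ± 0.08 did not pass. The difference between the fractions was not tested in spt8. ENB1 rose by 0.33 ± 0.10 in spt8 total RNA, a call lost without either spt8 array (adjusted p = 0.0668 and 0.07), and with all 6 WT arrays as control its change was -0.035. On the spike scale spt8 changes were higher by 0.50 in nascent and 0.33 in total RNA, and the nascent calls of SIT1 (adjusted p = 0.192), ARN1 (0.475) and FIT3 (0.18) were lost there, while FIT2 fell and CCC2 rose. FTR1 was at 0.10 on the spike scale, and its relative change of -0.40 passed in 3 of 6 fits without 1 array. With all 6 WT arrays as control 2 of the 8 genes fell in spt8 nascent RNA, and 3 fell with the replicate number as a block.

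A direct comparison of spt3 with spt8 in nascent RNA needs no WT array, and the S. pombe rho between fractions was similar in both strains (0.872 to 0.893 in spt3 and 0.872 to 0.876 in spt8). FET3, FTR1 and FIT2 were lower in spt3, so that 3 of 8 genes passed, where 3.18% of all tested genes differed and 1.59% were lower in spt3. FET3 differed by -2.58 ± 0.30 (adjusted p = 3.08e-06), a level 5.97-fold lower in spt3, and passed in all 4 fits without 1 of the 4 arrays. FIT2 differed by -1.76 ± 0.44 (adjusted p = 0.0223) and FTR1 by -0.72 ± 0.16 (adjusted p = 0.00694). FIT2 passed in none of those 4 fits (adjusted p = 0.0714 to 0.18) and FTR1 only without spt3 replicate 1. SIT1 was -0.92 ± 0.26 lower in spt3 without passing (adjusted p = 0.054). ARN1, FIT3, CCC2 and ENB1 did not pass either (-0.39 to -0.02). Spike-scaled, all 8 genes were lower in spt3, where 98.3% of all genes differed.

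**Figure D4:**
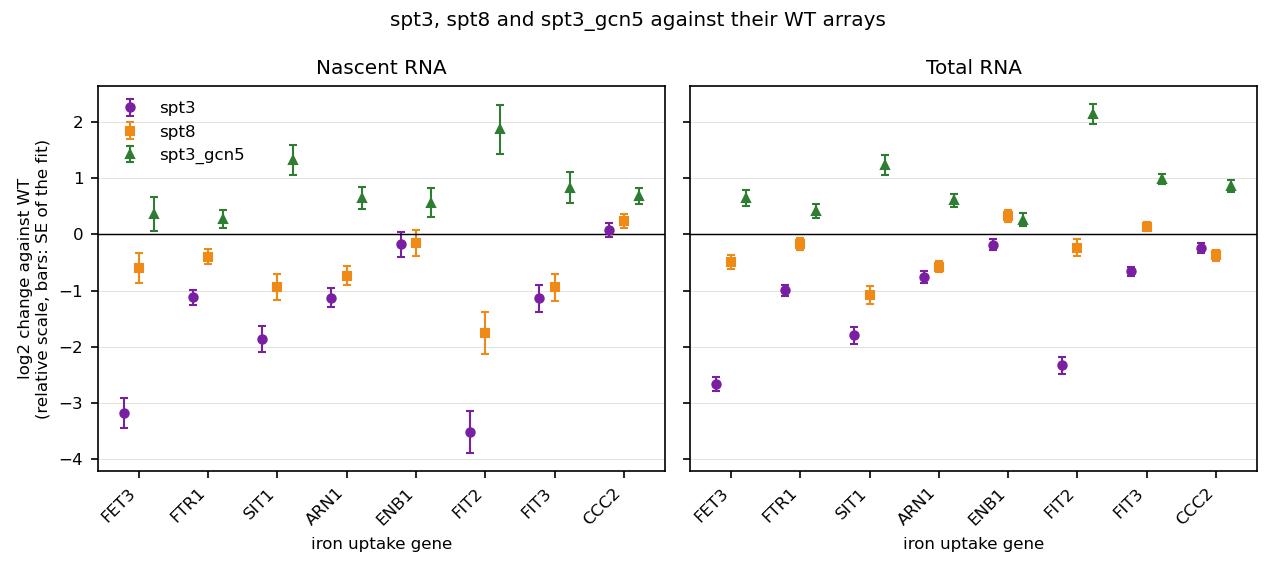
Log2 change against WT of the 8 tested iron uptake genes in spt3 (purple circles), spt8 (orange squares) and spt3_gcn5 (green triangles), in nascent (left) and total RNA (right), with the SE of the fit as bars. The spt3 points lie lowest at FET3 and FIT2, and the spt3_gcn5 points all lie above 0 on this scale.

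When Gcn5 was missing as well as Spt3, none of the genes fell relative to the median. In spt3_gcn5 nascent RNA 5 of 8 genes rose, where 37.2% of all genes changed and 18.8% rose, and in total RNA 7 of 8 rose and none fell, where 58.2% changed, 26.7% up and 31.5% down. FET3 was at 1.53 and 1.77 in spt3_gcn5 nascent RNA, against 1.20 and 1.39 in WT 7 and 8, a change of 0.36 ± 0.30 that did not pass. In total RNA it was at 2.06 and 2.13 in spt3_gcn5, against 1.46 and 1.45 in WT 7 and 8, and rose by 0.64 ± 0.14. SIT1 was at 1.08 and 1.32 in spt3_gcn5 nascent RNA, against -0.17 and -0.07 in WT 7 and 8, and rose by 1.32 ± 0.26 (adjusted p = 0.000298), with 1.23 ± 0.18 in total RNA. FIT2 was at -0.50 and -0.56 in spt3_gcn5 nascent RNA, against -2.33 and -2.47 in WT 7 and 8, and rose by 1.87 ± 0.44 (adjusted p = 0.00136). In total RNA FIT2 was at 0.62 and 0.76 in spt3_gcn5, against -1.33 and -1.60 in WT 7 and 8, a rise of 2.15 ± 0.18 (adjusted p = 1e-10). FIT3 rose by 0.83 ± 0.27 in nascent and 0.99 ± 0.10 in total RNA, CCC2 by 0.69 ± 0.14 and 0.87 ± 0.11, and ARN1 by 0.65 ± 0.20 and 0.60 ± 0.12. FTR1 rose in total RNA (0.41 ± 0.12) and did not pass in nascent RNA (0.28 ± 0.16), and ENB1 passed in neither. Without any 1 of the 4 nascent arrays only 3 or 4 genes rose, since FIT3 did not pass in any of the 4 fits, ARN1 passed in 2 of them, and FIT2, SIT1 and CCC2 passed in all.

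These rises depend on the scale and on the WT arrays. The spike-in shift in spt3_gcn5 was -3.23 in nascent RNA, so that all 8 genes fell on the spike scale, where 100% of all genes were called, with changes of -1.36 (FIT2) to -2.95 (FTR1). In total RNA the shift was -1.09, and FIT2 alone still rose (1.06, adjusted p = 2.86e-05), with SIT1 at 0.14 and the other 6 below 0, where 88.2% of all genes were called. WT 7 and 8 differ from WT 3 to 6 although the labels give them the same genotype. FIT2 was -3.16 ± 0.38 lower in WT 7 and 8 in nascent RNA and -2.09 ± 0.16 lower in total RNA, and ENB1 was 0.71 ± 0.22 and 1.09 ± 0.10 higher. In this WT comparison 67.7% of all genes differed in nascent RNA, with 1 of the 8 higher and 2 lower, and 77.7% in total RNA, with 2 higher and 3 lower. With all 6 WT arrays as the control FIT2 in spt3_gcn5 nascent RNA was at -0.23. The second set of arrays holds no single mutant, so the array set and the combination of deletions cannot be told apart in any comparison of spt3_gcn5 with another strain.

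The spt3_gcn5 change against its WT arrays exceeded the spt3 change against its own for 7 of 8 genes in nascent RNA, where 33.9% of all genes differed in this contrast and 17.1% had the higher change in spt3_gcn5. The difference was 5.39 ± 0.58 for FIT2, 3.54 ± 0.40 for FET3, 3.18 ± 0.35 for SIT1, 1.97 ± 0.36 for FIT3, 1.78 ± 0.26 for ARN1, 1.396 ± 0.207 for FTR1 and 0.61 ± 0.19 for CCC2. ENB1, at 0.74 ± 0.34, did not pass (adjusted p = 0.0945). Spike-scaled, the difference still passed as higher for FIT2 (2.94, adjusted p = 2.33e-08) and FET3 (1.08, adjusted p = 0.0109). It was 0.73 for SIT1 without passing (adjusted p = 0.0776) and below 0 for the other 5, and 98.7% of all genes were called. On the relative scale CCC2 passed in 7 of 10 fits without 1 array.

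FET3 fell in the strains without the core subunits Spt20 and Spt7, and none of the tested siderophore transporter genes passed as lower there relative to the median. Without the signal filter SIT1 passed as lower in spt20 nascent RNA (-0.51, adjusted p = 0.0402) and in spt7 total RNA (-0.31, adjusted p = 0.0422), and so did ARN1 (-0.20, adjusted p = 0.0399) and ENB1 (-0.19, adjusted p = 0.0462) in spt7. In spt20 2 of 8 genes fell and none rose in nascent RNA, where 46.2% of all genes changed and 21.5% fell, and in total RNA 2 fell and 2 rose, where 60.8% changed, 33.1% fell and 27.7% rose. In spt7 total RNA 1 gene fell and 2 rose, where 65.8% changed, 31.7% fell and 34% rose. FET3 was at -0.58, 0.28, -1.15 and 0.21 in spt20 nascent RNA, all below WT 3 to 6, and replicates 1 and 3 were lower than replicates 2 and 4. It changed by -1.34 ± 0.22 (adjusted p = 1.33e-05). In total RNA FET3 was at 0.18 and 0.08 in spt20 and at 0.03, 0.01, -0.03 and 0.04 in spt7, against 0.91 to 1.48 in WT. The total changes were -1.04 ± 0.12 in spt20 and -1.16 ± 0.10 in spt7, and the direct difference of spt7 from spt20 was -0.12 ± 0.12 (adjusted p = 0.484).

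FTR1 separated these strains. It was at 0.78, 0.84, 0.86 and 0.80 in spt7 total RNA and at 0.23 and 0.27 in spt20, where WT had 1.16, 0.72, 0.84 and 0.66. FTR1 fell by 0.60 ± 0.10 in spt20 total and by 0.82 ± 0.11 in spt20 nascent RNA, and in spt7 it did not pass (-0.03 ± 0.08). The level was 0.57 ± 0.10 higher in spt7 than in spt20 (adjusted p = 0.000138). Between these strains 2 of 8 genes were higher in spt7 (FTR1, and CCC2 by 0.36 ± 0.10) and 3 were lower (FIT2, ARN1 and FIT3), where 33.8% of all genes differed, 21.1% higher and 12.8% lower. FIT2 was at 0.85, 0.99, 0.78 and 1.06 in spt7 and at 1.53 and 1.748 in spt20 total RNA, a difference of -0.72 ± 0.16 (adjusted p = 0.000847). FIT2 rose against WT in both, by 0.30 ± 0.13 in spt7, which passed in 3 of 8 fits without 1 array, and by 1.01 ± 0.16 in spt20. CCC2 rose by 0.33 ± 0.08 in spt7. Between spt7 and spt20 ARN1 passed in 4 of 6 fits without 1 array, lost without either spt20 array, and FIT3 in 2 of 6, lost without either spt20 array and without spt7 replicate 1 or 3. The differences of FIT2, FIT3 and ARN1 between spt7 and spt20 rest on the 2 spt20 arrays kept, since with all 4 arrays labelled SPT20 total they were 0.15, 0.24 and 0.06. The spike-in shifts were -0.83 and -0.82 in spt20 and -0.78 in spt7. On that scale 7 of 8 genes fell in spt20 in each fraction, all but FIT2, where 81.3% of all genes were called in nascent and 85.2% in total RNA. All 8 fell in spt7, where 86.6% of all genes were called.

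The counts in nascent RNA of the strains without 1 enzyme are given beside the shares of all genes, and nothing is read from them about the iron uptake genes. In gcn5 ARN1 alone fell of the 8 genes, where 35% of all genes changed, 18.1% up and 16.9% down. In ubp8 none of the 8 rose or fell, where 11.7% of all genes changed, 7.39% up and 4.36% down. ARN1 was at -1.32, -1.92, -1.31 and -1.28 in gcn5 nascent RNA, against -0.67, -0.86, -1.19 and -1.45 in WT, so that the groups overlap. Its change of -0.42 ± 0.14 (adjusted p = 0.0207) was lost without gcn5 replicate 2 (-0.26, adjusted p = 0.114) and without WT replicate 3 (-0.295, adjusted p = 0.0995) or 4 (-0.36, adjusted p = 0.0685). The gcn5 replicate 2 had a S. pombe rho between fractions of 0.873, where the other gcn5 cultures had 0.972 to 0.977, and FIT2 was at -0.41 in it, against 1.214, 1.462 and 1.403 in the others. In total RNA ARN1 fell in gcn5 by 0.33 ± 0.08, and the call held in all 8 fits without 1 array.

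In gcn5 total RNA 3 of 8 genes rose and 1 fell, where 55.2% of all genes changed, 26.9% up and 28.3% down. FIT2 was at 1.59, 1.49, 1.61 and 1.81 in gcn5 total RNA, against 1.18, 0.33, 0.68 and 0.32 in WT, and rose by 1.00 ± 0.13. FET3 rose by 0.27 ± 0.10 and FIT3 by 0.17 ± 0.07. The FET3 call held in 4 of 8 fits without 1 array, lost without WT replicate 5 or 6 or gcn5 replicate 2 or 4, and the FIT3 call in 3 of 8, lost without WT replicate 5 or 6 or gcn5 replicate 1, 2 or 3. The nascent change of gcn5 minus its total change passed for none of the 8 genes and for 0% of all genes. In ubp8 total RNA SIT1, FIT2 and FIT3 fell, by 0.53 ± 0.13, 0.47 ± 0.13 and 0.28 ± 0.07, and ENB1 rose by 0.21 ± 0.08, where 35.5% of all genes changed, 18.3% down and 17.2% up. The ENB1 call held in 3 of 8 fits without 1 array, lost without WT replicate 4, 5 or 6 or ubp8 replicate 2 or 4. FIT2 was at 0.13, 0.28, 0.12 and 0.10 in ubp8 total RNA, below all 4 WT arrays. With all 6 WT arrays as control FIT2 in ubp8 was at 0.23 and ENB1 at -0.155.

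FTR1 rose in the strain without both enzymes. In ubp8_gcn5 it was at 1.49, 1.27, 1.55 and 1.30 in nascent RNA and at 1.45, 1.55, 1.68 and 1.42 in total RNA, above all 4 WT arrays of each fraction. It rose by 0.59 ± 0.11 (adjusted p = 7.48e-05) and 0.68 ± 0.08 (adjusted p = 1.29e-07). FET3, its partner, did not pass (-0.13 ± 0.22 and 0.11 ± 0.10). With CCC2, which rose by 0.72 ± 0.10 and 0.22 ± 0.08, 2 of 8 genes rose in nascent RNA, and none fell, where 55.3% of all genes changed, 32.5% up and 22.8% down. In total RNA 3 rose and 4 fell, where 61.9% changed, 28.3% rose and 33.6% fell. FIT2 rose by 0.41 ± 0.13, and SIT1, FIT3, ARN1 and ENB1 fell by 0.27 to 0.56. The deposited nascent values of this strain carry 2 constants that differ by 0.433 on the log2 scale and are shared out over the genes, with FET3, FTR1 and FIT2 under the larger. With the constants undone FTR1 was at 0.68 and CCC2 at 0.38, both still past the threshold, and SIT1 (-0.56) and FIT3 (-0.525) fell as well. The spike-in shift of ubp8_gcn5 was -1.49 in nascent RNA as deposited, under which all 8 genes fell, FTR1 by 0.89, where 97.3% of all genes were called. The constants lower the deposited values of the iron uptake genes by 0.888 or 1.32 on the log2 scale. Whether the S. pombe values carry them too was not examined, and the spike-scaled fit was not repeated with them undone. These nascent falls therefore hold for the deposited values only. In total RNA the shift was -0.52, where FTR1 was at 0.16 and 76.3% of all genes were called.

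Between spt3 and gcn5 in nascent RNA, 6 of 8 genes were lower in spt3, where 30.7% of all genes differed and 17.1% were lower. FIT2 differed by -3.68 ± 0.38, FET3 by -3.18 ± 0.26, SIT1 by -1.43 ± 0.23, FIT3 by -1.02 ± 0.24, FTR1 by -1.01 ± 0.14 and ARN1 by -0.71 ± 0.17, and all 6 passed without any 1 of the 6 arrays. CCC2 (-0.12 ± 0.12) and ENB1 (-0.17 ± 0.22) did not pass. The S. pombe rho between fractions was 0.872 to 0.893 in spt3 and 0.873 to 0.977 in gcn5, lowest in gcn5 replicate 2. In that array all 6 genes were above both spt3 arrays, with FIT3 at -0.44 against -0.62 and -0.69, and ARN1 at -1.92 against -2.17. The part of the separation in these differences was not tested.

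In WT itself, nascent levels minus total levels passed for none of the 8 genes (-0.30 for FIT3 to 0.29 for ENB1), where 1.81% of all genes did. This used WT 3 to 6, where the S. cerevisiae rho between the fractions was 0.975 to 0.993. The WT arrays varied together, however. In nascent RNA WT 3 was the highest of WT 3 to 6 for 7 of the 10 genes and WT 6 the lowest for 8, and in total RNA WT 3 was the highest for 9. The 10 genes are therefore not independent measurements of a strain. The range over WT 3 to 6 in nascent RNA was 1.16 for FIT2, 0.99 for SIT1 and 0.77 for ARN1, against 0.54 for FET3.

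**Figure D5:**
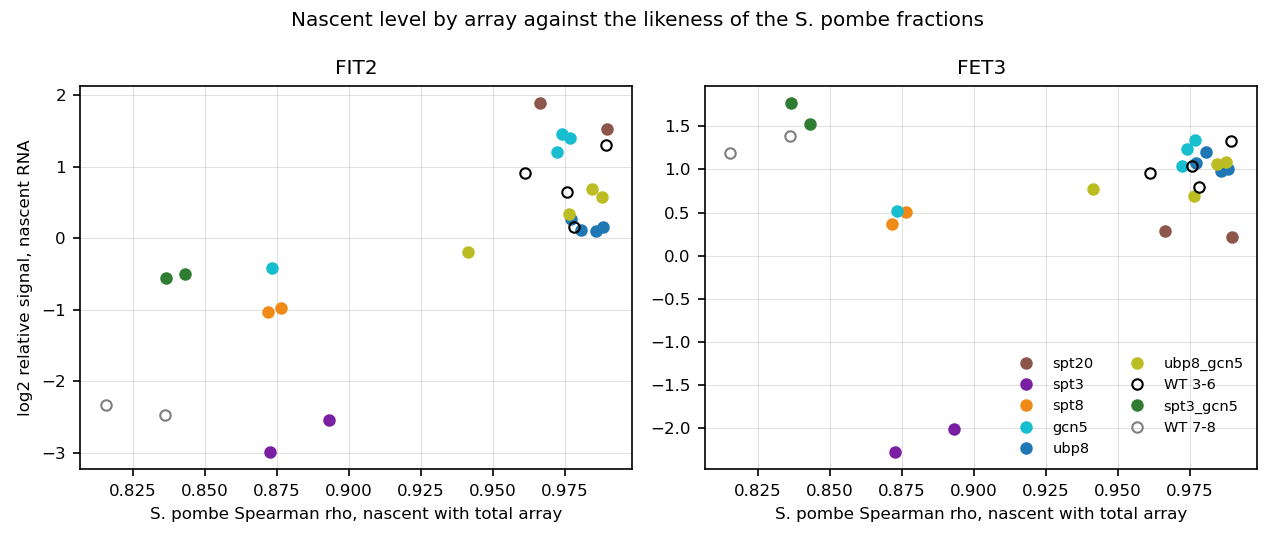
Level in nascent RNA (log2 relative to the array median) of FIT2 (left) and FET3 (right) against the Spearman rho of S. pombe genes between the nascent and the total array of the same strain and replicate. Arrays with a rho under 0.9 all have FIT2 below 0, whatever the strain, while FET3 is below 0 in 2 of them, both spt3.

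FIT2 in nascent RNA was below 0 in every array whose S. pombe rho between fractions was under 0.9. These are both arrays each of spt3, spt8, spt3_gcn5 and WT 7 and 8, and gcn5 replicate 2, with FIT2 between -2.98 and -0.41. All but gcn5 replicate 2 make up whole groups, so the rho and the group cannot be told apart in them. The rho needs a kept total array, so spt20 replicates 1 and 3 have none. Of the arrays above 0.9, ubp8_gcn5 replicate 1, at a rho of 0.941, had FIT2 at -0.20 and all others were above 0. FET3 was at 0.36 to 1.77 in the 7 such arrays other than spt3. In gcn5 replicate 2 FET3 was at 0.52, against 1.04, 1.24 and 1.34 in the other gcn5 arrays. In spt8 it was at 0.50 and 0.36, against 0.80 to 1.33 in WT 3 to 6. In spt3_gcn5 it was at 1.53 and 1.77, and in WT 7 and 8 at 1.20 and 1.39. FIT3 in nascent RNA was below 0 in spt3, spt8, WT 7 and 8 and gcn5 replicate 2 (-0.69 to -0.32). In spt3_gcn5 FIT3 was at 0.44 and 0.50. Among the arrays above 0.9, FIT3 was below 0 only in ubp8_gcn5 replicate 1 (-0.06). The part of the separation in the nascent values of FIT2, FIT3 and FET3 was not tested. The total RNA of spt3 gave FIT2 at -1.82 and -1.59, below every array of its own set, while WT 7 and 8 had -1.33 and -1.60.

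ARN2, another siderophore transporter gene, and FIT1 gave low signals. Fitted without the filter, ARN2 was at -2.19 and -2.32 in spt3 nascent RNA, against -1.83, -1.73, -1.57 and -2.15 in WT, and changed by -0.51 ± 0.14 (adjusted p = 0.0105). Its total change in spt3 of -0.24 ± 0.11 did not pass (adjusted p = 0.0789). It changed by 0.53 ± 0.12 in spt20 nascent, 0.58 ± 0.11 in spt20 total and 0.60 ± 0.09 in spt7 total RNA, each with an adjusted p under that of spt3. FIT1 changed by 1.11 ± 0.13 (adjusted p = 2.98e-07) in ubp8_gcn5 nascent and 0.77 ± 0.12 in total RNA, and by 0.59 ± 0.13 and 0.49 ± 0.12 in gcn5. In spt3 it changed by -0.56 ± 0.15 in nascent RNA and by 0.04 ± 0.14 in total RNA. FIT1 also carries the smaller of the 2 constants in ubp8_gcn5 nascent RNA.

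Other Aft1 and Aft2 targets were counted in the same comparisons. Of 13 tested out of 21 listed, 1 rose and 4 fell in spt3 nascent RNA (median -0.10, where the iron uptake genes had -1.13 and all genes -0.02), and 17.1% of all genes rose and 19.4% fell. ATX1, the copper chaperone that loads Ccc2, changed by -1.86, PCL5, a cyclin gene, by -1.61, the surface ferric reductase gene FRE1 by -0.74 and the iron-sulphur scaffold gene ISU2 by -0.53, while MRS4, a mitochondrial iron carrier gene, rose by 0.90. In spt3 total RNA 2 rose and 7 fell (median -0.21), where 27.5% of all genes rose and 19.6% fell. In spt3_gcn5 8 rose and 2 fell in nascent RNA, with MRS4 at 1.49, the vacuolar iron exporter gene SMF3 at 1.27, the vacuolar reductase gene FRE6 at 1.27 and PCL5 at -1.751, and 7 rose and 2 fell in total RNA. Of all genes 18.8% rose in spt3_gcn5 nascent and 26.7% in total RNA. In spt20 4 rose and 5 fell in each fraction, with SMF3 at 1.32 and FRE1 at -1.37 in nascent RNA, and in spt7 total RNA likewise 4 rose and 5 fell, with FRE1 at -1.23. In gcn5 1 rose and 2 fell in nascent and 2 rose and 4 fell in total RNA, and in ubp8 none rose and 2 fell in nascent and 5 in total RNA. In spt8 none rose and 3 fell in nascent and 2 in total RNA. In ubp8_gcn5 2 rose and none fell in nascent RNA (PCL5 at 1.23), and 2 rose and 4 fell in total RNA. The counts in these strains stand beside the shares of all genes given above for each, such as 35% called in gcn5 nascent and 46.2% in spt20 nascent RNA, and nothing is read from them about these targets.

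In the list of iron sensing genes, 1 passed in spt3 nascent RNA. Of 8 tested of 11 listed, BOL2, which helps to pass the iron signal to Aft1, fell by 0.73 in spt3 nascent RNA and no other passed, and AFT1 fell by 0.45 in spt3 total RNA, where 2 of the 8 rose. AFT1 also fell in total RNA of gcn5 (-0.53), ubp8_gcn5 (-0.49), spt8 (-0.42), ubp8 (-0.40), spt20 (-0.32) and spt7 (-0.30), and in spt20 nascent RNA (-0.49). It rose in spt8 nascent RNA (0.61) and in spt3_gcn5 total RNA (0.33). Of 13 tested iron-sulphur cluster assembly genes 4 rose and 3 fell in spt3 nascent RNA, with ERV1 at -1.08 and ISA1 at 0.65, and in spt3_gcn5 nascent RNA 4 rose and none fell, with NFU1 at 1.31. In total RNA, with 14 tested, 2 rose and 1 fell in spt3, and 3 rose and 3 fell in spt3_gcn5. Of the heme synthesis genes 2 of 7 fell in spt3 nascent RNA, HEM15 by 0.86 and HEM1 by 0.54, and in total RNA 2 of 8 rose and 1 fell. Of 9 other metal transporter genes 3 fell in spt3 nascent RNA, led by PHO84, the phosphate transporter that also admits metals, at -2.11, and in total RNA 1 rose and 2 fell. Of all genes 17.1% rose and 19.4% fell in spt3 nascent RNA, and 27.5% rose and 19.6% fell in total RNA. PHO84 also fell in nascent RNA of gcn5 (-3.36), spt20 (-4.31), ubp8_gcn5 (-3.84) and spt3_gcn5 (-6.07).

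The genes outside these lists whose changes were most like those of FET3 over the 15 comparisons of a strain with WT were ACO1 (Pearson r = 0.873), PDR5 (0.827), COA4 (0.812), FDC1 (0.802) and TIR3 (0.789), among 4015 genes tested in both fractions. ACO1 encodes aconitase, an iron-sulphur enzyme, PDR5 a drug efflux pump and TIR3 a cell wall mannoprotein. Of the iron uptake genes FTR1 had r = 0.83, the third place of all genes with FET3 itself counted, FIT2 0.757, SIT1 0.745, ARN1 0.635, FIT3 0.603, ENB1 0.555 and CCC2 0.519. These comparisons share WT arrays and, for nascent and total RNA, cultures, so the correlations are a description only. In spt3 nascent RNA TIR3 changed by -3.20, FDC1 by -1.28, ACO1 by -1.11, PDR5 by -0.63 and COA4 by -0.29.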

How the data were processed

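The authors deposited 1 table of linear signal intensity for 10928 probe sets on 68 Affymetrix arrays, and the submitters' processing notes name Affymetrix Expression Console 1.4.1. The background correction and normalization behind it were not stated. Platform annotation gave 1 gene to 7244 probe sets, several to 1 and none to 3683, and 12 symbols were updated through the RefSeq gene table. Where a gene had more than 1 probe set (47 genes), the one with the highest mean log2 intensity stood for it. Log2 intensities were centred on each array's median over the tested S. cerevisiae genes of its fraction, after the 25% of genes with the lowest mean log2 intensity were left out. Changes were fitted with limma 3.58.1 in R 4.3.3 (lmFit, eBayes), with 1 mean per strain and a mean each for WT 3 to 6 and WT 7 and 8, and p-values were adjusted by Benjamini-Hochberg over all 4086 tested genes. The script was tested on simulated data. The number of arrays limits the precision.

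WT replicates 1 and 2 were left out, since all 1746 of their S. pombe values equal the mean of arrays 3 and 4 and of arrays 5 and 6, within a relative tolerance of 1e-06, in both fractions. The spt7 nascent arrays and spt20 total arrays 1 and 3 were left out for the reasons given above. Alternatives were spike-in scaling on S. pombe genes, no signal filter, all 6 WT arrays as control, the compared groups fitted alone, averaged arrays, the replicate number as a block, and leaving out each array. The genes described, the other gene lists and the tests were chosen with earlier results of these data known. The genes named outside the lists are the 5 whose changes over all strains correlated best with those of FET3, and within a list the named genes are among the up to 6 with the lowest adjusted p past the threshold.

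Replicate numbers were not taken to pair the samples, though the check given with the alternatives could not exclude a pairing. Genome, promoter and protein sequences were not used here.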

Additional observations from a re-analysis of the deposited data

Results flagged for a closer look

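Of 100 groups of 4 arrays examined (10 genes), 8 held an array that stood apart from the other 3, where chance alone marks about 1 in 20 independent groups. The genes vary together and several of the 8 come from the same array, so nothing is read from this count. The gcn5 nascent replicate 2 stood apart for ARN1 (-1.925, others -1.324 to -1.284), ENB1 (-1.031, others -0.518 to -0.442), FIT2 (-0.413, others 1.214 to 1.462) and FIT3 (-0.44, others 0.569 to 0.74). That array also had the lowest S. pombe rho between fractions of its strain, 0.873, and its part in these values was not tested. ENB1 stood apart in ubp8 nascent replicate 4 (-0.084, others -0.597 to -0.529) and in WT total replicate 3 (-0.757, others -0.969 to -0.95). CCC2 did so in gcn5 total replicate 1 (-1.412, others -1.161 to -1.122) and in ubp8_gcn5 total replicate 2 (-1.194, others -0.995 to -0.968).

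The change in spt3_gcn5 differed from that in spt3 by a limma test of the difference in nascent RNA. The differences were 5.394 for FIT2, 3.537 for FET3, 3.185 for SIT1, 1.972 for FIT3, 1.783 for ARN1, 1.396 for FTR1 and 0.611 for CCC2. Both strains were measured in different sets of arrays, so the set and the genotype cannot be told apart. FIT2 in spt3 differed between the fractions, with a nascent change lower than the total change by a difference of -1.189. It passed in 5 of 12 fits without 1 array. With all 6 WT arrays as control, or with the compared groups fitted alone, it was lost. Of all genes 29.1% passed this contrast.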

How the results depend on the processing

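Counts are of the 8 tested genes past the threshold. In the fits without 1 array, the count was 6 in all for spt3 nascent RNA and for spt3 against gcn5, and 0 in all for gcn5 nascent minus total and for WT nascent minus total. It was 6 to 7 in spt3 total, 4 to 5 in spt8 nascent, 3 to 5 in spt8 total (3 without spt8 replicate 1), 2 to 4 in spt20 nascent (4 without spt20 replicate 2), 3 to 5 in spt20 total, 2 to 3 in spt7 total, 0 to 2 in gcn5 nascent, 2 to 4 in gcn5 total (2 without WT replicate 6), 0 to 1 in ubp8 nascent, 3 to 5 in ubp8 total, 2 to 3 in ubp8_gcn5 nascent, 6 to 7 in ubp8_gcn5 total, 3 to 4 in spt3_gcn5 nascent (3 without WT replicate 8) and 7 to 8 in spt3_gcn5 total. It was 1 to 2 for spt3 against spt8, 3 to 5 for spt7 against spt20 (3 without spt20 replicate 2), 6 to 7 for spt3_gcn5 minus spt3, 0 to 2 for spt3 nascent minus total, and 2 to 4 in nascent and 3 to 5 in total RNA for WT 7 and 8 against WT 3 to 6.

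Scaling on the spike-in moves the centre of every comparison. The count was then 7 in spt20 nascent and 7 in spt20 total, 8 in spt7 total and 8 in ubp8_gcn5 nascent as deposited, all as lower. It was also 8 in spt3_gcn5 nascent and 8 for spt3 against spt8, all as lower. It was 4 in spt3_gcn5 total (1 rose and 3 fell), 2 in spt8 nascent (1 and 1), 3 in spt8 total (2 and 1), 1 in gcn5 total, 0 in gcn5 nascent, 0 in ubp8 total, 2 for spt7 against spt20, 4 for spt3 nascent minus total and 7 in nascent RNA for WT 7 and 8 against WT 3 to 6. Directions that turned on this scale, for values past the threshold on at least 1 of the scales, were, in spt3_gcn5 nascent, FET3 -2.875, FTR1 -2.954, SIT1 -1.911, ARN1 -2.577, ENB1 -2.666, FIT2 -1.357, FIT3 -2.398 and CCC2 -2.546. In spt3_gcn5 total they were FET3 -0.448, FTR1 -0.678, ARN1 -0.489, ENB1 -0.83, FIT3 -0.106 and CCC2 -0.227, and for spt3_gcn5 minus spt3 FTR1 -1.059, ARN1 -0.672, ENB1 -1.717, FIT3 -0.483 and CCC2 -1.845. In ubp8_gcn5 nascent RNA as deposited, with the constants in place, they were FTR1 -0.891, ARN1 -1.459, ENB1 -1.092 and CCC2 -0.763. In ubp8_gcn5 total RNA they were FET3 -0.417, FIT2 -0.116 and CCC2 -0.305. In spt20 they were ARN1 -0.697, ENB1 -0.745 and FIT3 -0.543 in nascent and ARN1 -0.638 and FIT3 -0.593 in total RNA, and in spt7 total FIT2 -0.487, FIT3 -0.779 and CCC2 -0.453. CCC2 was -0.701 in spt3 nascent and FTR1 0.102 in spt8 nascent RNA. For WT 7 and 8 against WT 3 to 6 they were FTR1 0.846, ARN1 0.669 and FIT3 0.102 in nascent and FET3 -0.463, SIT1 -0.607 and CCC2 -0.744 in total RNA.

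With all 6 WT arrays as control the count was 6 in spt20 nascent, 1 in ubp8 nascent, 2 in spt8 nascent, 2 in ubp8 total, 0 for spt3 nascent minus total and 1 for WT nascent minus total. FIT2 in spt3_gcn5 nascent was -0.231, FIT2 in ubp8 total 0.226, ENB1 in ubp8 total -0.155 and ENB1 in spt8 total -0.035. With the compared groups fitted alone it was 0 in gcn5 nascent, 8 in spt3_gcn5 nascent, 1 in ubp8 total, 2 in gcn5 total, 3 in spt8 total, 0 for spt3 nascent minus total and 2 in total RNA between the WT sets. With consecutive replicates averaged it was 0 in gcn5 nascent, 2 in gcn5 total and 3 in total RNA between the WT sets. With odd and even replicates averaged, chosen after seeing the data, it was 3 for spt7 against spt20. With all 4 spt20 total arrays it was 3 for spt7 against spt20, with ARN1 at 0.061, FIT2 at 0.153 and FIT3 at 0.236, and FIT3 in spt20 total was -0.233. With the constants undone it was 4 in ubp8_gcn5 nascent. Without the signal filter, over 10 genes, it was 5 in spt20 nascent, 2 in gcn5 nascent, 4 in ubp8_gcn5 nascent, 6 in spt7 total, 2 for spt3 nascent minus total and 5 in nascent RNA between the WT sets. Averaging probe sets changes nothing for genes with 1 each, and culture as a random block moved no count past 1.5 times. The causes of these changes were not tested.

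The replicate numbers did not pair the samples: deviations of same-numbered arrays correlated at -0.657 to 0.657 over 62 pairs in nascent RNA, 27 of them over 0.1, and at -0.391 to 0.529 over 74 pairs in total RNA, 18 of them over 0.1. With the replicate number as a block the count was 1 in ubp8 nascent, 2 in gcn5 nascent, 3 in spt8 nascent and 3 in spt8 total. The comparisons with spt3_gcn5 or WT 7 and 8 could not be fitted with the block.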
